A study of Homo sapiens with 2 samples.

Results

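The transcripts described here carry a class name for RNA that may run past the annotated ends of genes. They are the 3097 rows of the deposited transcript table that the authors classed as possible polymerase run-on, with a length of 200 bases or more and a position outside chromosome Y. They make up 1.53% of the 202463 transcripts of the table. The class holds 3241 rows of any length, of which 144 were left out for their length or for a position on chromosome Y, where 3 rows lie. The class, length and position chose the members, and no expression value did. Each member carries the name of the gene of its nearest annotated transcript, called its host gene below, and the 3097 members name 2098 hosts. Of these hosts, 1363 have 1 member, 525 have 2, 165 have 3 and 45 have 4 or more, up to 6. Members are said below to lie past their host by this naming. Their position could be read for 1697 of them only. The FPKM of the host (fragments per kilobase, a level corrected for transcript length and library depth) was taken as the sum over its annotated and newly assembled isoforms.

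The RNA came from WI-38, an established human cell line of diploid lung fibroblasts kept in DMEM. The young culture was at population doubling level 20 and the senescent culture at level 52, where the line had aged by repeated division (replicative senescence). Total RNA was amplified whether or not it carried a polyA tail, and ribosomal RNA was removed. Each group holds 1 library, so no spread between cultures is known, no difference has a replicate check, and every comparison is between 2 libraries without a test. The column named old in the table was taken as the senescent library. Paired values below give the young library first. A log2 ratio is that of senescent over young after 1 FPKM was added to both, which understates the difference of low transcripts. A transcript or gene was taken as measured if either library had 1 FPKM or more. It was called higher or lower when its ratio on that scale reached 2-fold.

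RNA polymerase II transcribes beyond the end of the mature RNA before it leaves the template. For most genes the nascent RNA is cut at a polyadenylation site and given a polyA tail, and an exonuclease then degrades the RNA still being made behind the cut. Replication-dependent histone genes, which are used when DNA is copied, end in another way: their RNA is cut just after a short stem-loop and carries no polyA tail. Most microRNAs are cut out of longer primary transcripts, whose own ends lie well past the microRNA.

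Among the groups of hosts examined, histone genes had the largest share of members higher in the senescent library, so the stem-loops at which their RNA is normally cut are shown first. They were read from GENCODE 29 transcripts by searching the first 700 bases of the sense strand for GG, any 3 bases, TT, any base, T, any base, A, any 3 bases and CC, in this order. The motif was found in 12 of the 13 histone hosts, all but HIST1H1C, and in 1.10% of 83129 coding transcripts searched in the same window. A motif past the first 700 bases would be missed, so HIST1H1C is not shown to lack one. In longer transcripts the end was not searched. Hosts were scored on any of their transcripts and the coding share counts single transcripts, so these shares are not alike. A match is a description of the letters and not a measured cleavage site. The 12 hosts hold 4 distinct stem-loops, printed 5′ to 3′ with the motif in capitals and 5 bases on either side.
HIST1H4H: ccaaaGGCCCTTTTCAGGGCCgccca
HIST1H2BG: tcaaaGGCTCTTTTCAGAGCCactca
HIST1H2BC: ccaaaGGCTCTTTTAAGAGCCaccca
HIST2H2BC: ccaaaGGCTCTTTTCAGGGCCattta
The stem-loop of HIST1H4H is also that of HIST1H4E and HIST4H4, and that of HIST1H2BG is shared by HIST1H2BE, HIST1H3H, HIST2H2BE and HIST2H2BF. HIST3H3 has the stem-loop of HIST1H2BC, and HIST2H2BD that of HIST2H2BC. For 9 of the 13 hosts GENCODE 29 holds a transcript that runs on for 500 bases or more past the stem-loop.

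MicroRNA genes are another set of hosts whose products are short and well defined. Of the 36 microRNA hosts, 7 had a member that formed a locus of its own and was at least 2-fold higher or lower, and 5 of the 7 are in the RefSeq table at hand (GRCh38.p14). All mature microRNAs that the table lists for these hosts are printed with the seed, bases 2 to 8, in capitals.
miR-145-5p: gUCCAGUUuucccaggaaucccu
miR-145-3p: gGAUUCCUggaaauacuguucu
miR-21-5p: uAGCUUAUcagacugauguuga
miR-193a-3p: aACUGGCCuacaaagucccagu
miR-193a-5p: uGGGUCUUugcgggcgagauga
miR-101-5p: cAGUUAUCacagugcugaugcu
miR-377-3p: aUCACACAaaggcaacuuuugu
miR-377-5p: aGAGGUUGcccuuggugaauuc
No seed is shared among these. The members of these 5 hosts lie past the annotated microRNA gene and do not contain it.

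The members were short, with a median length of 463 bases, an interquartile range of 355 to 639 and a longest member of 4379. For 1718 members the transcript is unspliced and alone in its locus, and for the other 1379 it is spliced or shares a locus with other transcripts, so its FPKM is the authors' split of shared fragments. Position could be read for 1697 of the members alone in their locus, from the hg19 coordinates of the table. Of these, 1663 began past the end of the nearest transcript, 34 overlapped it and 0 lay before its start. The distance from that end had a median of 996 bases and quartiles of 407 and 1598. It was 2000 bases or less for 1506 members and more for 157. Measured from the end of the whole gene, 1609 members lay past it, and 27 of these were over 2000 bases away.

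**Figure D1:**
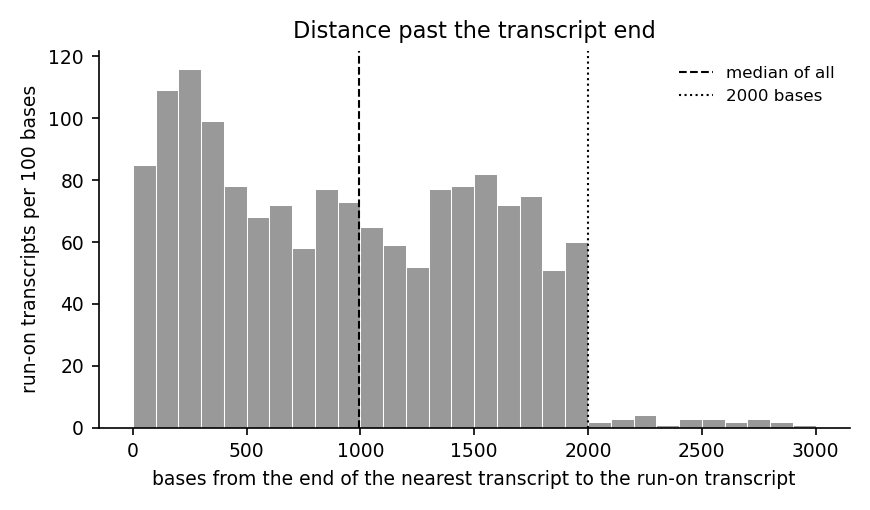
Distance in bases from the end of the nearest transcript to the start of the run-on transcript (x axis), as the number of members per 100 bases (y axis). The 1530 members within 3000 bases are plotted and 133 lie beyond. The counts end sharply at 2000 bases (dotted line), and the dashed line is the median of 996 bases.

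In the members alone in their locus the FPKM steps by whole fragments, which gave depths of 16060000 fragments (young) and 14940000 (senescent). Whole values, within a tolerance of 0.05 fragments, were 98.1% of 1393 for young and 98.4% of 1397 for senescent cells. In a 400-base member a single fragment stands for 0.316 FPKM (young) or 0.340 (senescent). The median member alone in its locus holds 11 fragments from young and 6 from senescent cells, so most single members are known only roughly. Intervals of a fold below are exact binomial (Clopper-Pearson) at 95% on these fragments, and they cover counting error only. All 8 fibroblast marker genes were at 1 FPKM or more, with a summed level of 10418 against 5724 FPKM. Of the markers of other cells, 2 of 5 epithelial, 0 of 2 endothelial and 1 of 4 blood genes reached 1 FPKM, with sums of 5.26 against 8.52, 0.0932 against 0.513 and 14.8 against 21.5 FPKM. The part of these markers in the results was not tested.

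Over all members the median level was 2.83 against 1.78 FPKM, and the highest values were 59.7 and 69.9. The young library had 144 members at 0, the senescent one 280, and 51 were at 0 in both. A level of 10 FPKM or more in either library was reached by 261. Run-on transcripts were thus low in both libraries, and more of them were at 0 in the senescent one.

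Of the 3097 members 2877 were measured and 220 stayed under 1 FPKM in both libraries. Among those measured, 843 (29.3%) were lower and 323 (11.2%) higher in the senescent library, and 1711 lay within 2-fold. Of all 80242 measured transcripts, 17.9% were lower and 10.7% higher. The median log2 ratio of the members was -0.45, against -0.23 for all transcripts and -0.08 for annotated ones. The other assembled transcripts were also shifted down. Those inside introns had a median of -0.56, with 23.2% of 17331 lower and 3.34% higher. Those between genes had a median of -0.41, with 29.1% of 8643 lower and 17.6% higher. The share of lower members is therefore near that of intergenic assembled transcripts. From which reads the transcripts were assembled is not given in the sources used here, and its part in this shift was not tested.

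**Figure D2:**
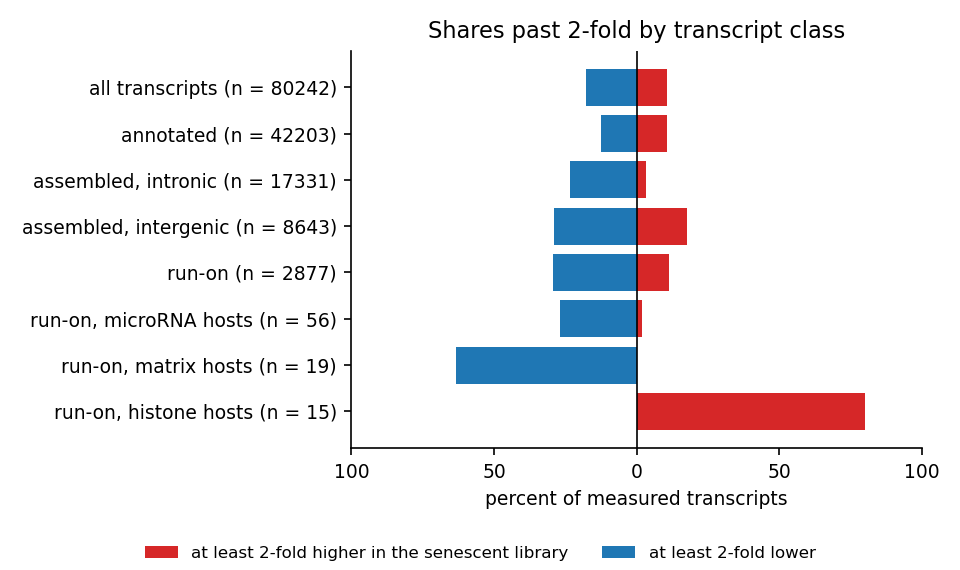
Percent of measured transcripts at least 2-fold lower (left, blue) or higher (right, red) in the senescent library, for 4 sets of transcripts, for all run-on transcripts and for the run-on transcripts of 3 groups of hosts. Run-on transcripts were lower in 29.3% and higher in 11.2%, and those of histone hosts were higher in 12 of 15.

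Fragment counts gave a like picture. Summed over the 1635 measured members alone in their locus, 39724 fragments stood against 28175, a depth-corrected fold of 0.762 (0.751 to 0.774). For single members the interval lay below 1 in 486 (29.7%), above 1 in 180 (11.0%), and held 1 in 969. Of the 530 called lower in this set 398 had an interval wholly below 1, and of the 178 called higher 133 had one wholly above 1. The other calls of either kind were within counting error.

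**Figure D3:**
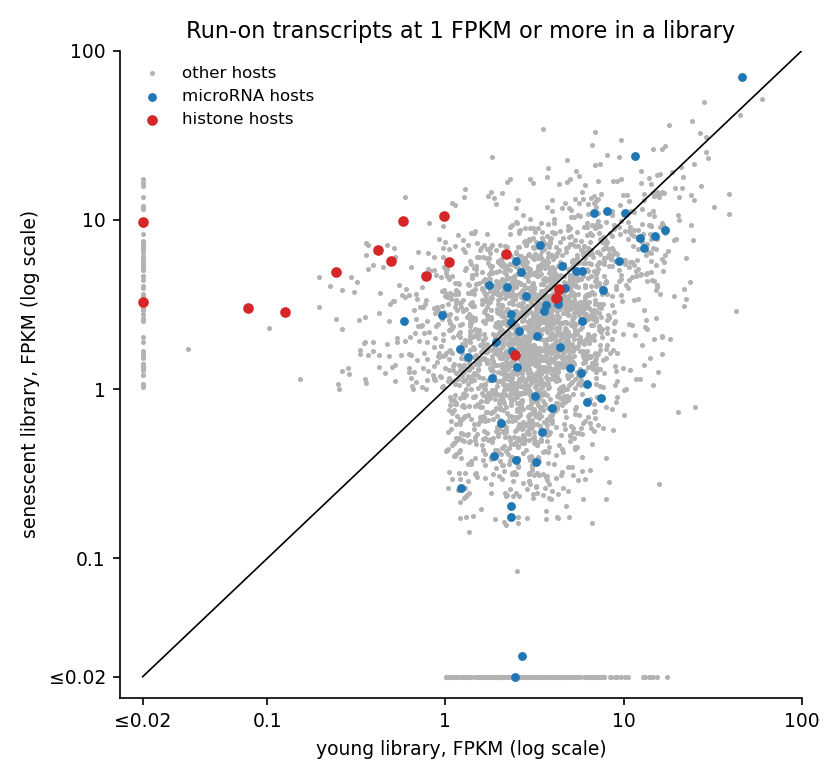
FPKM of the 2877 measured run-on transcripts in the young (x axis) and senescent (y axis) library, both on a log scale, with values at or under 0.02 drawn at 0.02. Each point is 1 transcript and the line marks equal levels. Most grey points lie below the line, while 12 of the 15 histone-host points (red) lie above it, and the microRNA-host points (blue) spread on both sides.

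The host genes did not show the same shift. Among the 2517 measured members whose host was measured, the median log2 ratio of the hosts was -0.06 and that of the members -0.45. Of these members 562 (22.3%) were at least 2-fold below the ratio of their host and 227 (9.02%) at least 2-fold above it. The added 1 FPKM draws the ratio of a low member towards level more than that of a high host. A member that fell to 0 can thus count as above a lower host. An example is 1 past BGN, at 1.72 against 0 FPKM with the host at 312 against 49.2. Where the host was higher in the senescent library (165 members), 71 members were higher and 10 lower. Where the host was lower (234), 164 members were lower and 5 higher. Where the host was within 2-fold (2118), 559 members were lower, 197 higher and 1362 within. Past a host that differed, members were seldom past 2-fold in the other direction, and past a host within 2-fold they were more often lower than higher. As a description across members, the Pearson correlation of the ratios of member and host was 0.44 over 2342 members with a host at 1 FPKM or more in both libraries. Over the 1609 hosts, with their members summed, it was 0.48, and member and host had the same sign in 1066 (66.3%). These pairs share their libraries, and their points are not replicates.

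**Figure D4:**
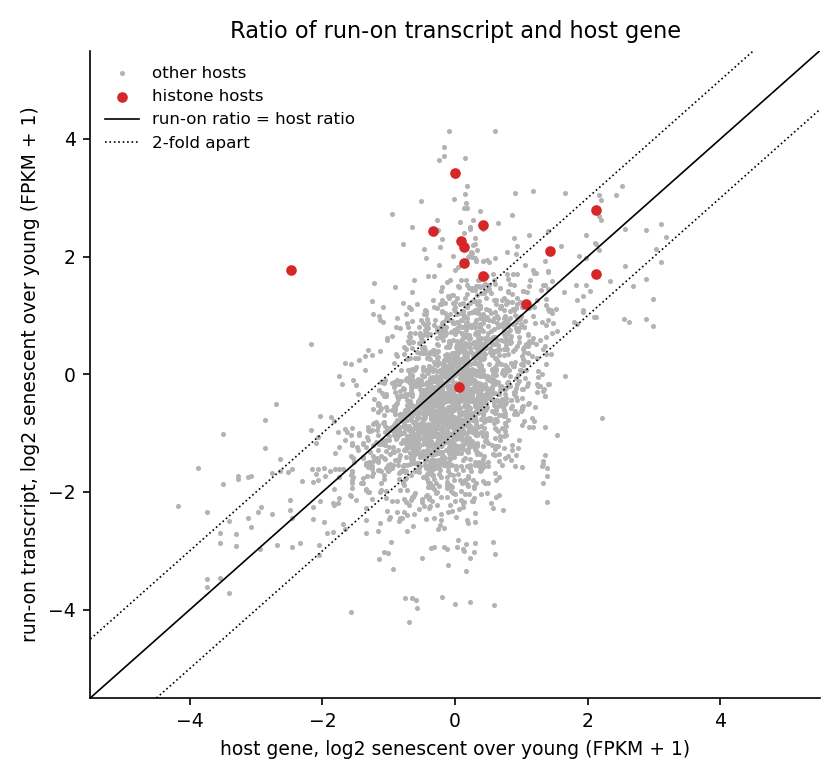
Log2 ratio of senescent over young, on FPKM + 1, of the host gene (x axis) and of its run-on transcript (y axis), for 2517 members with a measured host. The solid line marks equal ratios and the dotted lines 2-fold apart. Points scatter widely about the line, with 562 under the lower dotted line and 227 over the upper one, among them 8 histone-host members (red).

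Set against the summed level of the host, the median run-on transcript was lower in the senescent library. The median over the 2342 members was 19.9% of the host's FPKM in young cells and 12.5% in senescent cells. These shares depend on how the host is summed: against its highest isoform they were 35.4% and 22.0%, and against the nearest transcript alone 60.9% and 41.1%. The quartiles were 5.87% and 52.9% in young cells, and 3.37% and 40.2% in senescent ones. The share was lower in the senescent library for 1559 members and higher for 783. In 288 members (young) and 239 (senescent) the run-on transcript lay above its whole host. For the 1329 of these members that are alone in their locus, the interval of the member's fold held the fold of the host in 941 (70.8%), lay below it in 299 and above it in 89. For most single members a difference from the host was not detectable at this depth. The host's fold was taken here as a fixed value, since its own counting error could not be read.

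The members' level varied little with their distance from the transcript end. Members that began 1 to 500 bases past the transcript end had a median of 3.20 FPKM against 2.02, and those that began over 1500 and up to 2000 bases past it 3.10 against 1.95. The share of lower members was 34.6% in the first of these bins and 32.5% in the second. In 217 hosts with at least 2 members alone in their locus, the nearer member was the higher one in 119 (young) and in 117 (senescent). Its log2 ratio had the same sign as that of the farther one in 162 (74.7%), with both lower in 116 and both higher in 46. The share of lower members was 36.6% under 400 bases and 17.8% at 1000 bases or more, and the share of higher ones 17.6% and 7.20%. Short members also hold the fewest fragments. Where the next coding gene lay in the same direction 31.5% of 763 members were lower, and where it faced the host 32.8% of 817.

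Coding genes with a run-on transcript were more highly expressed than those without. The 1624 measured coding hosts, 13.2% of measured coding genes, had medians of 15.5 and 14.8 FPKM, and the 10662 others 8.87 and 8.30. Their median gene span was 42116 bases against 31774.5. Among the hosts 6.53% were higher and 8.62% lower, and among the other genes 6.49% and 8.60%, so the hosts as genes did not stand apart in their share past 2-fold.

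Replication-dependent histone genes were the group of hosts whose run-on transcripts were higher in the senescent library. Of 15 members past 13 histone hosts 12 were higher and 0 lower, beside 11.2% higher over all members. Their median log2 ratio was 1.90, while that of their hosts was 0.14. Summed, the 15 members were at 17.9 against 82.2 FPKM. All 9 members past genes of the HIST1 cluster were higher. Among the 12 higher members the host was itself higher for 4, within 2-fold for 7 and lower for 1, and 8 of the 13 members with a measured host lay at least 2-fold above its ratio.

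HIST1H4H, which encodes core histone H4, has 2 members alone in their locus. The nearer one, 308 bases long and 1358 bases past the gene end (hg19 chromosome 6), was at 0.576 against 9.91 FPKM, 1 against 16 fragments. The farther one, 319 bases long and 1759 bases past the end, was at 1.05 against 5.66 FPKM, 2 against 10 fragments. The host was at 8.87 against 42.0 FPKM, so gene and run-on transcripts were higher together. HIST2H2BF, an H2B gene on chromosome 1, differed from this. Its member, 460 bases long and 637 bases past the gene end, was at 0.242 against 4.95 FPKM, 1 against 19 fragments, while the host was at 10.4 against 11.1 FPKM.

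The other histone members, except that of HIST3H3, share a locus, so their values are split estimates and their position was not read. Past HIST1H1C, a linker histone gene, the member was at 0 against 9.70 FPKM and the host at 37.7 against 37.5. Past the H2B gene HIST1H2BC the member of 2154 bases was at 0.416 against 6.69 FPKM and the host at 33.7 against 26.5. Past HIST1H4E the member was at 0.127 against 2.87 FPKM, while the host was at 31.5 against 4.83 and so went the other way. For these 3 genes the value of the member was higher in the senescent library while that of the gene was level or lower. Whether these members lie past the gene end could not be read. The 2 members of HIST1H2BG were at 0.495 against 5.70 and 0.0776 against 3.01 FPKM, with the host at 4.03 against 4.55. The member of HIST4H4 was at 0.985 against 10.6 FPKM and its host at 2.74 against 3.99. Past HIST1H2BE the member was at 0 against 3.30 FPKM and the host at 14.02 against 39.5. HIST1H3H and HIST2H2BE had members at 0.776 against 4.65 and 2.18 against 6.30 FPKM. Their hosts were at 0.610 against 1.17 and 4.96 against 11.5 FPKM.

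Exceptions were the H2B pseudogenes HIST2H2BC and HIST2H2BD and the H3 gene HIST3H3. Their members were at 4.17 against 3.44, 4.35 against 3.89 and 2.46 against 1.59 FPKM, all within 2-fold. That of HIST3H3 is alone in its locus, with 20 against 12 fragments. HIST2H2BC and HIST2H2BD are near-identical copies, so fragments may be split between them.

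**Figure D5:**
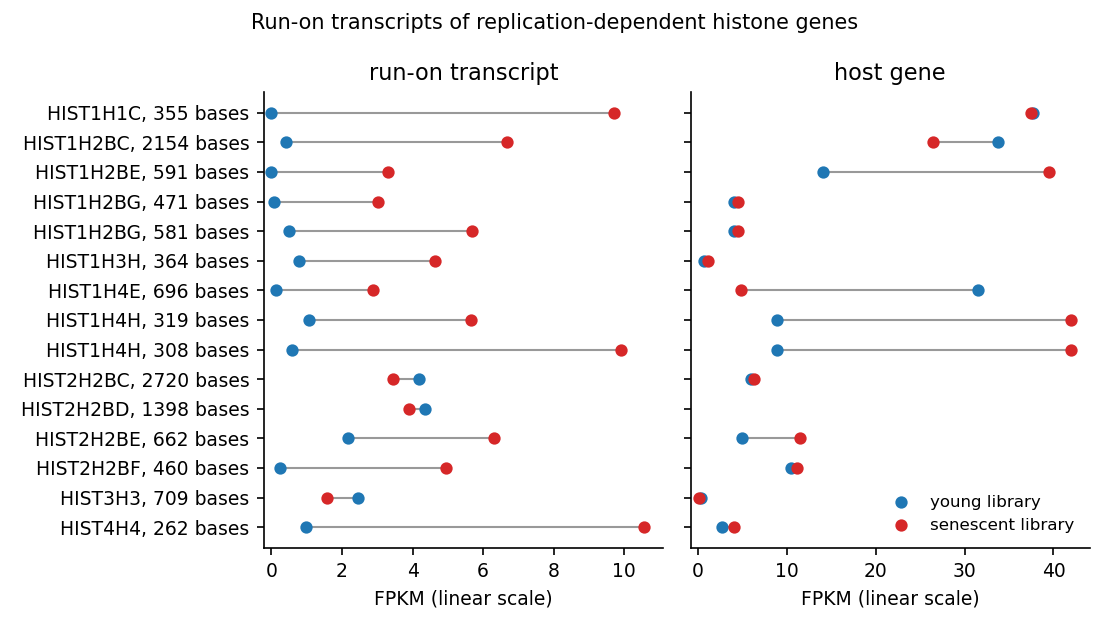
FPKM of the 15 run-on transcripts of replication-dependent histone genes (left panel) and of their host genes (right panel) in the young (blue) and senescent (red) library, on linear axes of different range. In 12 of 15 rows the red point of the run-on transcript lies at least 2-fold above the blue one on FPKM + 1. HIST2H2BD has no host value.

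Of the 15 histone members 6 belong to 1 bundle of overlapping transcripts on hg19 chromosome 6, which spans 252905 bases, and without it 6 of 9 were higher. The 4 members alone in their locus summed to 24 against 57 fragments, a fold of 2.55 (1.56 to 4.30). With a pseudocount of 5 FPKM the count of higher members was 4. Histone genes were chosen as a group with the results of these data known, and they are near-identical copies of each other in part, so the count is a description of these libraries.

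Most genes of factors that cut histone RNA or end transcription were within 2-fold between the libraries. Of 26 factors of cleavage and polyadenylation 0 were higher and 0 lower, and the median log2 ratio was -0.23. Of 9 measured factors of histone 3′ ends 0 were higher and 0 lower (median -0.26). Furthest from level among them were CASP8AP2, at 6.68 against 2.87 FPKM, NPAT, at 13.2 against 6.89, and LSM10, at 12.2 against 21.9. Their log2 ratios were -0.99, -0.85 and 0.79, so CASP8AP2 fell just short of the call on FPKM + 1. Of 36 measured factors of termination and nuclear RNA decay 0 were higher and 1 lower, the exosome gene EXOSC9, at 9.96 against 3.99 FPKM. Their median was -0.33. Of 14 measured genes listed with Integrator 1 was higher and 0 lower (median -0.11). INTS7 had the lowest ratio of these, at 14.4 against 7.13 FPKM. The higher one was OBFC2A, at 52.8 against 334 FPKM. It is not an INTS gene and encodes a single-stranded DNA binding protein. The median of all 17965 measured genes was -0.10, with 6.65% higher and 8.58% lower.

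Genes of these lists are also hosts, of 16 members in all, of which 3 were higher and 5 lower, beside 11.2% and 29.3% of all members, so few that no group difference can be read. The 3 higher ones were low: that of CPSF2 held 0 against 2 fragments, and those of EXOSC6, an exosome gene, were at 1.75 against 4.83 and 1.14 against 3.37 FPKM. Another member of EXOSC6 was at 6.85 against 0 FPKM, with the host at 3.02 against 3.37. Past CDC73, a subunit of the elongation complex PAF1, the member was at 6.84 against 0.566 FPKM, 13 against 1 fragments, and the host at 79.4 against 76.5. Past NUDT21, a subunit of cleavage factor I, it was at 7.07 against 0.894 FPKM, 17 against 2 fragments, and the host at 10.3 against 6.28. The member of the cyclin gene CCNT1, 3904 bases long, was at 11.1 against 8.30 FPKM, 658 against 459 fragments, and by position it overlaps the annotated transcript.

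Hosts that encode extracellular matrix and secreted proteins showed the other direction. Of 28 members past 16 such hosts 19 were measured, and 12 of these were lower and 0 higher, beside 29.3% lower over all members. Their median log2 ratio was -1.16 and that of their hosts -1.04, so the medians of member and gene were near each other. Past DCN, the gene of the proteoglycan decorin, the member was at 10.1 against 0.7001 FPKM, 31 against 2 fragments, and the host at 517 against 135 FPKM. Past COL3A1, a fibrillar collagen gene, the member was at 10.9 against 1.31 FPKM, 9 against 1 fragments, and the host at 397 against 57.4. The 2 members of TGFBI were at 2.67 against 0.507 and 6.10 against 1.54 FPKM, and the host at 543 against 298. An exception to the shared direction was SPARC, a collagen-binding protein gene at 1254 against 1995 FPKM, whose 2 members were at 2.36 and 1.79 FPKM in young cells and at 0 in senescent cells.

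The most abundant matrix genes were listed with little RNA past their ends. FN1, the fibronectin gene, was at 6810 against 2490 FPKM, and its members at 2.18 against 0.561 and 3.45 against 1.24. Both FN1 members share a locus and have the authors' status FAIL, so these values are uncertain split estimates. The member past COL1A1, a gene at 3994 against 1242 FPKM, was listed at 0 in both libraries. In bulk RNA fewer cells that express a gene and less RNA per cell cannot be told apart, for host and member alike.

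Other groups were small. The members of the cell cycle and senescence list, 1 past EZH2 and 1 past MDM2, were at 2.27 against 0.696 and 3.82 against 4.48 FPKM. The host EZH2, a histone methyltransferase gene, was at 10.4 against 1.52 FPKM, and MDM2, the gene of the ligase that degrades p53, at 230 against 236. All 3 members of cytoskeleton hosts, past ACTG1 and TPM1, were within 2-fold, and so were both measured members of 4 past spliceosomal small nuclear RNA genes.

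Run-on transcripts past microRNA genes differed between 1 cluster and the other chromosomes in their median ratio. Of 59 members past 36 microRNA hosts 56 were measured, of which 15 (26.8%) were lower and 1 (1.79%) higher, beside 29.3% and 11.2% of all members. Their median log2 ratio was -0.35, and the share of lower ones is near that of all members. On chromosome 14, where a large cluster of imprinted microRNA and small nucleolar RNA genes lies, 2 of 26 measured members were lower and 1 higher (median 0.08). They fall between positions 101336642 and 101529919 (hg19). On the other chromosomes 13 of 30 were lower, 0 higher and the others within 2-fold (median -0.90). This split was chosen after the values were seen. The level of the mature microRNAs, which are shorter than the sequenced fragments, was not measured.

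MIR145 is a microRNA gene best known from smooth muscle. Its member, 682 bases long and 1411 bases past the annotated end, was at 6.24 against 0.838 FPKM, 48 against 6 fragments, a fold of 0.134 (0.0470 to 0.314). In the same stretch of chromosome 5 lie 2 members assigned to the long intergenic RNA gene AC131025.8, at 6.49 and 7.42 FPKM, 54 and 34 fragments, in young cells and at 0 in senescent cells. With 3 fragments set in place of 0 they were 16.7-fold and 10.5-fold lower, and the intervals of their folds reached up to 0.0760 and 0.123. The 3 members lie within 5971 bases (hg19 chr5:148806418-148812388) and together hold 136 against 6 fragments, with no value for the bases between them.

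Past MIR21, a microRNA gene often found at high level in tumours, the member was at 3.95 against 0.772 FPKM, 11 against 2 fragments. The 2 members past MIR193A were at 3.23 against 0.372 and 1.87 against 0.402 FPKM, 28 against 3 and 5 against 1 fragments. The member past MIR101-1 was at 5.76 against 1.24 FPKM, 10 against 2 fragments. The intervals of the MIR101-1 member and of the lower MIR193A member held 1. MIR377, in the chromosome 14 cluster, had 3 members, of which the one called higher held 1 against 4 fragments, which is within counting error. The member past MIR493, in the same cluster, was well covered with 363 against 471 fragments.

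The largest differences of single members at 400 bases or more were in both directions. Among the lowest ratios, past SOCS1, the gene of an inhibitor of cytokine signalling, 78 fragments in the young library stood against 0. That is 24.2-fold lower with 3 fragments set in place of 0, and the interval of the fold reached up to 0.0521. The SOCS1 host was at 13.4 against 0.235 FPKM. SMAD1, a mediator of BMP signalling, had a member at 7.96 against 0.225 FPKM and was itself at 41.2 against 7.37. Past GPC6, a glypican gene, the member of 971 bases was at 20.1 against 0.730 FPKM and the host at 34.7 against 1.66. OLFML3, which encodes a secreted glycoprotein, had a member with 27 against 0 fragments and was itself at 124 against 11.6 FPKM. In these 4 genes the host was lower too. CRLF3 was an exception, with a member at 6.36 against 0 FPKM and a host at 5.07 against 5.79.

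Among the highest ratios, the member of AC087699.1 was at 0.590 against 13.6 FPKM, 7 against 150 fragments, a fold of 23.0 (10.9 to 58.3), and the host at 0.703 against 8.80. The member of CLSTN2, a calsyntenin gene, held 0 against 71 fragments, and the host was at 0.0119 against 2.19 FPKM. With 3 fragments set in place of 0 that member was 25.4-fold higher, and the interval of its fold began at 20.2. Past NRG1, the gene of the growth factor neuregulin 1, the member was at 1.73 against 13.9 FPKM and the host at 13.0 against 102. The member of AL359392.1 held 0 against 28 fragments, and the host was at 0.168 against 4.26 FPKM. In these 4 genes host and member were higher together. Past SECTM1 and FASTKD2 the members were at 0 against 5.13 and 0 against 4.66 FPKM, and the hosts, at 2.88 against 2.23 and 9.24 against 11.0, were within 2-fold. The members of RP3-395P12.2 and RP11-383J24.1 were at 1.09 against 12.5 and 0 against 5.03 FPKM past hosts under 1 FPKM in both libraries.

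The members furthest from the ratio of their host mostly share a locus, so their values are split estimates without fragment counts. The one exception was that of FAM3C. FAM3C, which encodes a secreted protein, was at 16.4 against 44.5 FPKM, while its member, 1766 bases past the end, was at 3.72 against 0.572 FPKM, 14 against 2 fragments. ANKH, a phosphate and citrate transporter gene, was at 11.4 against 56.4 FPKM and its member, within 2-fold, at 2.11 against 0.868. C9orf44 was at 1.86 against 6.36 FPKM and its member at 2.44 against 0.323. The members of ZFAND3 and C7orf58 were at 3.16 and 3.05 FPKM in young cells and at 0 in senescent cells. Their hosts, at 58.8 against 94.0 and 96.6 against 135 FPKM, were within 2-fold. In the other direction DNAJB5, a chaperone gene, was at 27.8 against 11.3 FPKM and its member at 0.573 against 3.62. BCL9, a coactivator of Wnt signalling, was at 14.6 against 5.52 FPKM and its member at 0 against 1.36.

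Of the 10 members of 400 bases or more with the highest mean, 8 are described here, and they were within 2-fold. AAK1, a kinase gene, had the highest mean among these, with a member at 59.7 against 52.1 FPKM and a host at 46.6 against 45.0. Past MAVS, an adaptor of antiviral signalling, a member of 1023 bases was at 45.1 against 41.9 FPKM, 593 against 513 fragments, which is 382% of the host in young cells. The host was at 11.8 against 13.8 FPKM. GALNT5, a glycosyltransferase gene, had a member at 26.9 against 32.5 FPKM, 771 against 867 fragments, a fold of 1.21 (1.10 to 1.33), and was itself at 124 against 140. EXT1, a heparan sulfate polymerase gene, had a member at 16.5 against 26.2 FPKM and was at 304 against 594. The members of CDH13, TBX5 and RP3-368A4.3 were at 21.6 against 17.96, 28.9 against 25.2 and 27.2 against 15.9 FPKM. That of RNF24 was at 28.4 against 50.1 FPKM. The members of AAK1, TBX5, RP3-368A4.3 and RNF24 are spliced or share a locus, so their values are split estimates and their position was not read. The ratios of RNF24, RP3-368A4.3 and EXT1 were furthest from level, at 0.80, -0.74 and 0.63 on the log2 scale. Shorter members were as abundant: that of AL117190.1, with 232 bases, was at 46.4 against 69.9 FPKM, and the 262-base member of GPC6 at 42.5 against 2.92. The value of the AL117190.1 member is a split estimate as well.

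For some genes the transcript classed as run-on lay far above the gene, though not each of these was shown to lie past it. The member of TRIAP1, a small p53 target gene, was at 29.04 against 30.7 FPKM and the host at 3.51 against 2.84, though by position this member overlaps the annotated transcript. C14orf132 had a member of 2759 bases at 19.7 against 7.67 FPKM, 807 against 293 fragments, and a host at 3.01 against 1.72. It starts 229 bases past its nearest transcript but inside the span of the gene, so it lies past the end of 1 isoform only. The member of SHMT1, a serine hydroxymethyltransferase gene, was at 24.1 against 38.4 FPKM with a host at 4.40 against 1.80. C14orf49 had a member at 10.2 against 8.58 FPKM and WDR4 one at 8.71 against 6.66. Their hosts were at 1.89 against 1.71 and 2.31 against 1.10 FPKM. The members of SHMT1 and C14orf49 are spliced or share a locus, so their values are split estimates and their position was not read. The WDR4 member starts 7313 bases past its nearest transcript and 1181 bases past the gene end, and it lies in the span that the file gives for another coding gene, MX2.

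The longest members and the hosts with most members came next. SLC9A7, an ion exchanger gene, had the longest member, at 1.08 against 3.39 FPKM with the host at 8.91 against 25.4. The member of BNC2, a zinc finger gene, is 3081 bases long and began 1891 bases past the end. It was at 21.8 against 3.11 FPKM, 1006 against 134 fragments, and the host at 120 against 26.5. In both genes member and host differed the same way. DYM has 6 members, of which 2 were higher and 2 lower, past a host at 10.4 against 11.6 FPKM. A pair of them from 1 locus was at 0 against 7.37 and at 7.33 against 1.04 FPKM, and such values are a split of shared fragments. LMO7 and C12orf23 have 5 members each. The LMO7 members ranged from 1.72 to 5.35 FPKM (young) and from 1.48 to 8.60 (senescent), with a host at 281 against 489. Those of C12orf23 ranged from 0.930 to 3.95 and from 0.968 to 3.34 FPKM.

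The authors' deposited table marks as significant, at a q-value under 0.1, 56 of 2929 members with a usable test (1.91%), against 3.16% of all transcripts. Lower by the authors' deposited table were 41 of these (1.4%) and higher 15 (0.512%), against 1.84% and 1.32% of all transcripts. That test also has 1 library per group. Of the 41 members that the authors' deposited table marks as lower, 28 have a host that was lower, 8 one within 2-fold, 4 one under 1 FPKM and 1 no host value, and of the 15 higher members 8 have a host that was higher. The lower members in that set include some past genes known from mitosis, which were picked after their values were seen and form no list. The members of CENPF, MAD2L1 and CENPI were at 3.10 against 0.228, 4.47 against 0.313 and 5.01 against 0.528 FPKM, past hosts that were lower too. The 2 members of CDCA2 were at 3.83 against 0.457 and 3.26 against 0.242 FPKM, also with a lower host. That of SPC24 was at 2.52 against 0.0847 FPKM past a host under 1 FPKM, and that of CKS2 at 4.76 against 0.683 past a host within 2-fold. Members on the higher side were those of F3, the tissue factor gene, at 0.965 against 6.03 FPKM, and ITGA3, an integrin gene, at 0.923 against 7.68. Their hosts were at 26.7 against 162 and 81.8 against 250.03 FPKM.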

How the data were processed

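The authors deposited 1 table of annotated and assembled transcripts with an FPKM in each library, per the file headers. Per the submitters' processing notes, the tools were TopHat2 2.0.6, Cufflinks 2.0.2 and Cuffdiff, with the build hg19. Settings, strand and the reads used for assembly are not given in the sources used here. The p-value and q-value of each transcript are the authors' own, deposited with a mark of significance at a q-value under 0.1. The deposited fold change (ratio) and log2 columns were not used.

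Members were chosen by class, length (200 bases) and chromosome. Their host's FPKM was summed over isoforms. Ratios used a pseudocount of 1 FPKM, a minimum of 1 FPKM in 1 library and a 2-fold threshold. No count test was run, since fragments could be read only for members alone in their locus (effective length from fragments of 200 bases, SD 80, shortest 39). They gave depths of 16060000 and 14940000 fragments. Intervals are Clopper-Pearson at 95%, with a floor of 3 fragments. The scripts were tested on simulated data. Python 3.11.15, pandas 2.3.3, numpy 2.4.6, scipy 1.17.1 and matplotlib 3.10.9 were used.

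Samples were grouped by their labels, and the comparison was senescent against young, with 1 library each. The members and gene lists were chosen with earlier results of these data known. Named members, at 1 FPKM and 400 bases or more, were the 10 highest, the 8 at each end of the ratio among those at 2 FPKM or more, the 6 furthest above and below their host, the 5 highest relative to it, the 3 longest, and the 3 hosts with most members. All members of the host groups (histones, matrix and secreted, cytoskeleton, cell cycle, small nuclear RNA) count as named as well, shorter ones included. Of each list of termination factors the rule took the 3 of largest ratio and the 2 of highest mean. Alternatives covered pseudocount, filter, length, status, scaling and the value of the host. Genome sequence of the run-on regions was not used here. A result that the rule for named members would take is not reported here.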

Additional observations from a re-analysis of the deposited data

How the results depend on the processing

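No paired analysis was possible because each group holds 1 library. The call that members were more often lower than higher held under every setting run, and sizes moved as follows.

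With a pseudocount of 0.1 FPKM the median log2 ratio was -0.62, and 345 members lay above and 890 below their host. With 5 FPKM 82 members were higher, 137 lower, 92 above and 164 below their host, 4 histone members were higher, and the median was -0.20. At 5 FPKM or more 192 were higher, 326 lower, 114 above and 203 below their host, and 7 of 7 histone members were higher, with 38.3% and 25.8% of the host. At 400 bases or more the values were 139, 460, 91, 299 and 7, with 18.1% of the host in the young library. With no filter the shares of the host were 18.1% and 11.1%.

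Upper-quartile scaling gave medians of -0.51 for members and -0.13 for hosts, and median-ratio scaling -0.39 and 0.024, so the sign of the host median depends on the scaling. Taking the host as its highest isoform gave 35.4% and 22.0%, and as the nearest transcript 60.9% and 41.1%. Of members alone in their locus (chosen after seeing the data, as were the next) 178 were higher, 530 lower, 117 above and 317 below their host, 3 of 4 histone members were higher, and medians were -0.51 and -0.11 for the hosts. With 1 member per host 214 were higher, with 22.1% and 14.5% of the host. Without the largest histone bundle 6 of 9 were higher. Sets with fewer members give smaller counts by construction.

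Depth limits single members, of which most hold under 20 fragments.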

Other observations

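Long intergenic RNA hosts had the largest share of higher members among the noncoding hosts with 20 or more measured members. Of 77 measured members past such hosts 17 (22.1%) were higher and 19 (24.7%) lower, beside 11.2% and 29.3% of all members, and the median log2 ratio was -0.37. Among the best covered were those of RP11-199F6.8, with 15 against 132 fragments and a host at 0.646 against 5.45 FPKM, and RP11-255A11.21, with 158 against 5 fragments and a host at 1.24 against 0.142. AC104135.3 had a member of 560 bases with 12 against 30 fragments and was itself at 12.4 against 23.8 FPKM. Another member of AC104135.3, with 13 against 14 fragments, was within 2-fold. RP11-14N7.2 differed from its member in direction, with 173 against 50 fragments in the member and a host at 21.1 against 28.9 FPKM. AC108463.1 had a member of 978 bases at 17.3 against 8.46 FPKM, 215 against 98 fragments, with a host at 5.05 against 3.798. Of 36 measured members past small nucleolar RNA hosts 4 (11.1%) were higher and 7 (19.4%) lower (median log2 ratio 0.05), and the share of higher ones is near that of all members. SNORD113.5 on chromosome 14 had a member at 17.98 against 36.5 FPKM, and SNORD116-18 on chromosome 15 one at 17.1 against 27.2. Past pseudogenes, 14 (11.7%) of 120 members were higher and 41 (34.2%) lower, both near the shares of all members.

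Of 324 measured members whose host stayed under 1 FPKM in both libraries, 49 were higher and 100 lower, beside 11.2% and 29.3% of all members. Of 385 measured members whose host had a mean of up to 1 FPKM, 14.5% were higher and 31.4% lower. Medians of the 324 members were 2.69 and 1.73 FPKM, so run-on transcripts were listed for genes whose own listed value was low. Some of these hosts are microRNA genes. There a low value does not show that the product is low, since mature microRNAs were not measured.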
